A study of Mus musculus with 4 samples.

Results

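Subunit genes of the Polycomb repressive complexes and of chromatin remodelling complexes were measured by sequencing the RNA of mouse embryonic stem cells (ES cells, cultured cells that keep the potential of the early embryo). The 35 genes were chosen by symbol from a list of subunits: 10 of Polycomb repressive complex 2 (PRC2), 12 of Polycomb repressive complex 1 (PRC1), 6 of the BAF remodeller, 5 of the NuRD remodeller and deacetylase, and 2 other remodelling ATPases. All 35 had a row among the 37991 genes of the count table, and all 35 were among the 14027 genes that passed the low-count filter. The cells compared were 2 dKO libraries, null for both B-type lamins (Lmnb1 and Lmnb2, which encode filament proteins under the inner nuclear membrane), and 2 wild-type (wt) libraries. Every library carried the strain label ZHBTc4, an ES cell line in which the pluripotency factor Oct4 is known to be made from a repressible transgene. The labels call the replicates biological and do not say whether a genotype comprised more than 1 line, so lamin loss and a difference between lines cannot be told apart.

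Polycomb complexes keep developmental genes silent. PRC2 methylates a histone lysine, PRC1 binds that mark or unmethylated CpG islands and ubiquitinates another core histone, and ES cells without them express lineage genes out of turn. BAF, NuRD, ISWI and CHD enzymes use ATP to slide, eject or space nucleosomes, and NuRD also removes acetyl groups from histones. Part of the Polycomb-marked and silent chromatin of a nucleus lies close to the lamina, and the comparison bears on whether the genes that encode this machinery are transcribed at other levels in cells without B-type lamins.

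Total counts were 16697970 and 16584014 in dKO replicates 1 and 2, and 12899964 and 14941952 in wt replicates 1 and 2. The targeted transcripts matched the labels: Lmnb1 had 4.24 and 6.03 CPM (counts scaled to library size) in the dKO libraries against 667.5 and 547.0 CPM in the wt libraries, and Lmnb2 had 2.52 and 3.28 CPM against 105.0 and 117.5 CPM. All 8 ES cell markers were detected, with a summed level of 5795 to 6109 CPM in dKO and 5146 to 5147 CPM in wt libraries. Of these markers Zfp42 had 1449 and 1435 CPM in dKO against 665.7 and 613.4 CPM in wt libraries (edgeR adjusted p = 0.0886). Log2 fold changes, dKO minus wt, were positive for 3 of the 8 and negative for 5, with a median of -0.03. Both dKO libraries lay above both wt libraries for 2 of the 8 and below them for 2 (17.2% and 16.4% of all tested genes). Fibroblast markers summed to 9.01 to 14.7 CPM in dKO and 13.1 to 13.2 CPM in wt libraries, with S100a4 at 0 in all 4 and 4 of 9 past the filter. Primitive endoderm markers summed to 483 to 492 CPM and 415 to 501 CPM (10 of 10 past the filter, none at 0), and epiblast and mesendoderm markers to 90.7 to 105 CPM and 99.1 to 122 CPM (4 of 6, Pou3f1 at 0), in dKO and wt libraries in that order. Of the 10 primitive endoderm markers 3 had both dKO libraries above both wt libraries and 0 below (17.2% and 16.4% of all tested genes). Log2 fold changes were positive for 5 of the 10 and negative for 5. The highest was that of Sox7, 1 of the 3, at 11.2 and 7.70 CPM in dKO against 4.61 and 2.10 CPM in wt libraries (log2 fold change 1.503, edgeR adjusted p = 0.72). The part of these markers in the results below was not tested.

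None of the 35 genes passed the test between dKO and wt cells, in either direction. In edgeR's quasi-likelihood test with Benjamini-Hochberg adjustment over all tested genes, 0 of 35 had an adjusted p under 0.05, where 0.0855% of all tested genes did; the lowest adjusted p among the 35 was 0.883, for Kdm2b. At an unadjusted p under 0.05 there was 1 gene higher in dKO cells (2.87% of all tested genes) and 0 lower (2.71% of all tested genes). Log2 fold changes, dKO minus wt, ran from -0.26 for Phf19 to 0.34 for Kdm2b, with a median of 0.05 over the 35 and of -0.002 over all tested genes. They were positive for 28 genes and negative for 7, and with scaling by total counts only Smarca4, Smarcb1 and Hdac1, all within 0.02 of 0, turned negative. The tally was less stable to the libraries: 22 were positive without dKO replicate 1, 25 without dKO replicate 2, 25 without wt replicate 1 and 24 without wt replicate 2. Among the signs that changed, Jarid2 was at -0.10 without dKO replicate 1 and Bmi1 at -0.53 without dKO replicate 2.

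The intervals limit how far most of these genes can have differed. The 95% interval of the fold change lay within 2-fold of no change for 32 of the 35 genes, against 65.5% of all tested genes, and within 1.5-fold for 24 of them, against 37.2% of all tested genes. The 3 with wider intervals were Cbx8 (0.28-fold to 3.84-fold), Bmi1 (0.57-fold to 2.16-fold) and Phf19 (0.49-fold to 1.41-fold). The median SE of the log2 fold change was 0.14 over the 35 and 0.21 over all tested genes. Both dKO libraries lay above both wt libraries for 7 genes (17.2% of all tested genes did so) and below them for 0 genes (16.4% of all tested genes did so). In bulk RNA, fewer cells that express a gene and less of its RNA per cell cannot be told apart.

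**Figure D1:**
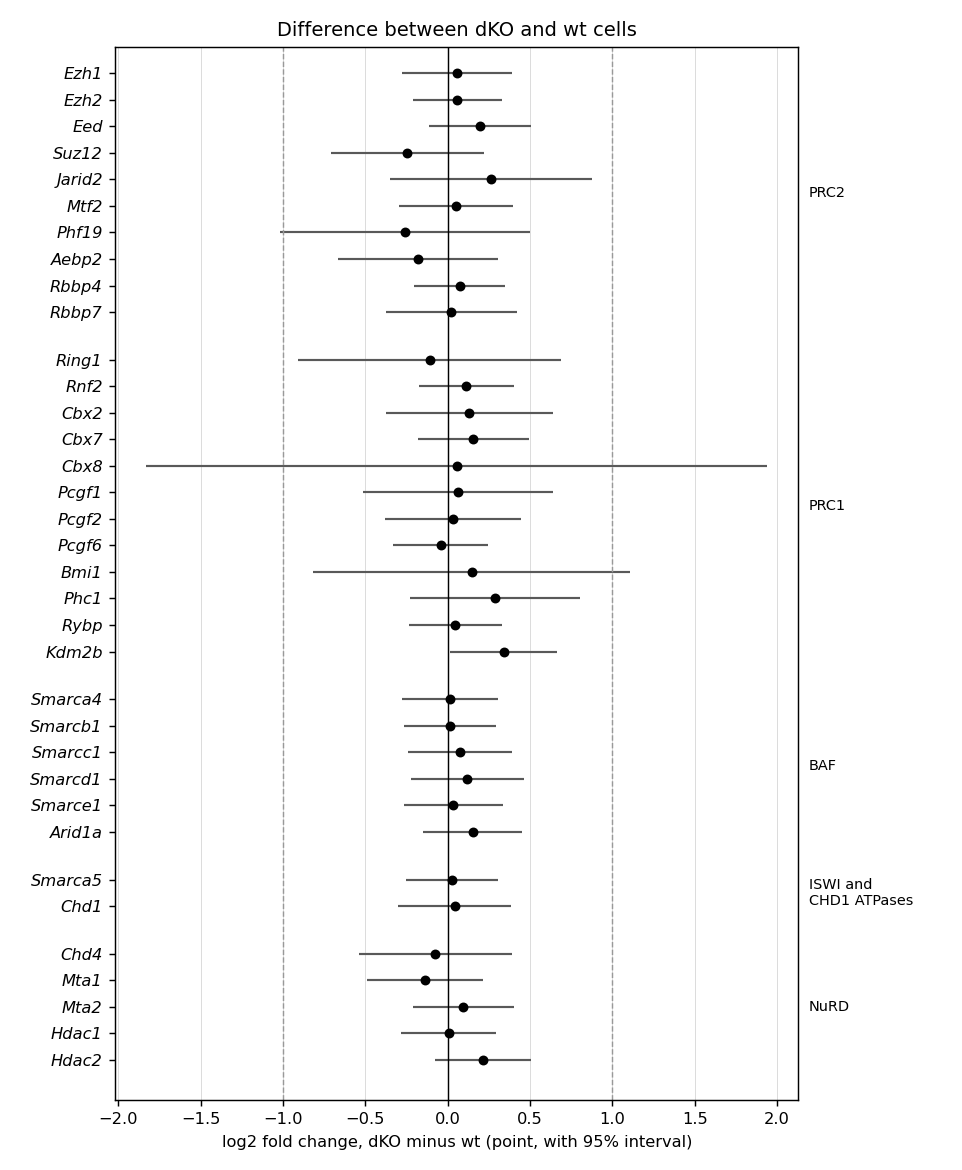
Log2 fold change of each subunit gene, dKO minus wt, as a point with its 95% interval (edgeR, 2 libraries per genotype), grouped by complex; dashed lines mark 2-fold. All points lie between -0.26 and 0.34, and the intervals of Cbx8, Bmi1 and Phf19 cross a dashed line.

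None of the 10 PRC2 genes passed the test. Levels are given below as reads per kilobase of exon, scaled to library size (RPKM), which also lets genes be compared approximately with each other. The lengths are those of all annotated exons of a gene merged, which can exceed its longest transcript, as for Kdm2b (10869 against 5180 bases). Ezh2, the main methyltransferase of dividing cells, had 24.01 and 24.02 RPKM in dKO replicates 1 and 2, against 22.6 and 23.6 RPKM in wt replicates 1 and 2. Its paralogue Ezh1 had 6.54 and 5.82 RPKM in dKO against 6.12 and 5.80 RPKM in wt libraries. Both dKO values of Ezh2 were the higher ones, by less than the width of its interval (log2 fold change 0.06, 95% interval -0.21 to 0.33), and those of Ezh1 overlapped (0.05, -0.28 to 0.39).

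Eed, which reads the methyl mark and stimulates the enzyme, had 99.3 and 100.4 RPKM in dKO against 93.2 and 80.9 RPKM in wt libraries. Suz12, the scaffold of the complex, had 91.2 and 112.2 RPKM in dKO against 103.3 and 137.8 RPKM in wt libraries. The 2 thus differed in sign, with log2 fold changes of 0.20 (SE 0.13) for Eed and -0.25 (SE 0.19) for Suz12, and neither passed (edgeR adjusted p = 0.953 and 0.969). For Suz12 the replicate 2 library was the higher one in both genotypes. The histone chaperones Rbbp4 and Rbbp7 serve PRC2 and NuRD alike. Rbbp4 had 60.6 and 60.2 RPKM in dKO against 57.2 and 57.7 RPKM in wt libraries, and Rbbp7 had 166.5 and 154.3 RPKM against 178.7 and 137.5 RPKM. The dKO libraries lay above wt for Rbbp4 by 0.07 on the log2 scale, and between the wt libraries for Rbbp7.

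The accessory subunits that steer PRC2 to its targets overlapped between genotypes. Jarid2, a cofactor that joins PRC2 together with Aebp2, had 127.2 and 81.1 RPKM in dKO against 97.8 and 75.9 RPKM in wt libraries. Aebp2 had 23.5 and 32.3 RPKM in dKO against 28.2 and 35 RPKM in wt libraries. Replicate 1 was the higher library of each genotype for Jarid2 and the lower one for Aebp2, and the genotypes overlapped for both (log2 fold changes 0.26, SE 0.25, and -0.18, SE 0.20). Mtf2, a Polycomb-like protein that defines the other form of PRC2, had 96.5 and 101.1 RPKM in dKO against 86.4 and 104.7 RPKM in wt libraries. Phf19, a second Polycomb-like protein, had 5.50 and 8.58 RPKM in dKO against 6.45 and 10.4 RPKM in wt libraries. Within each genotype Phf19 was higher in replicate 2, by 0.64 in dKO and 0.69 in wt cells on the log2 scale, while its log2 fold change between genotypes was -0.26 (95% interval -1.02 to 0.50).

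**Figure D2:**
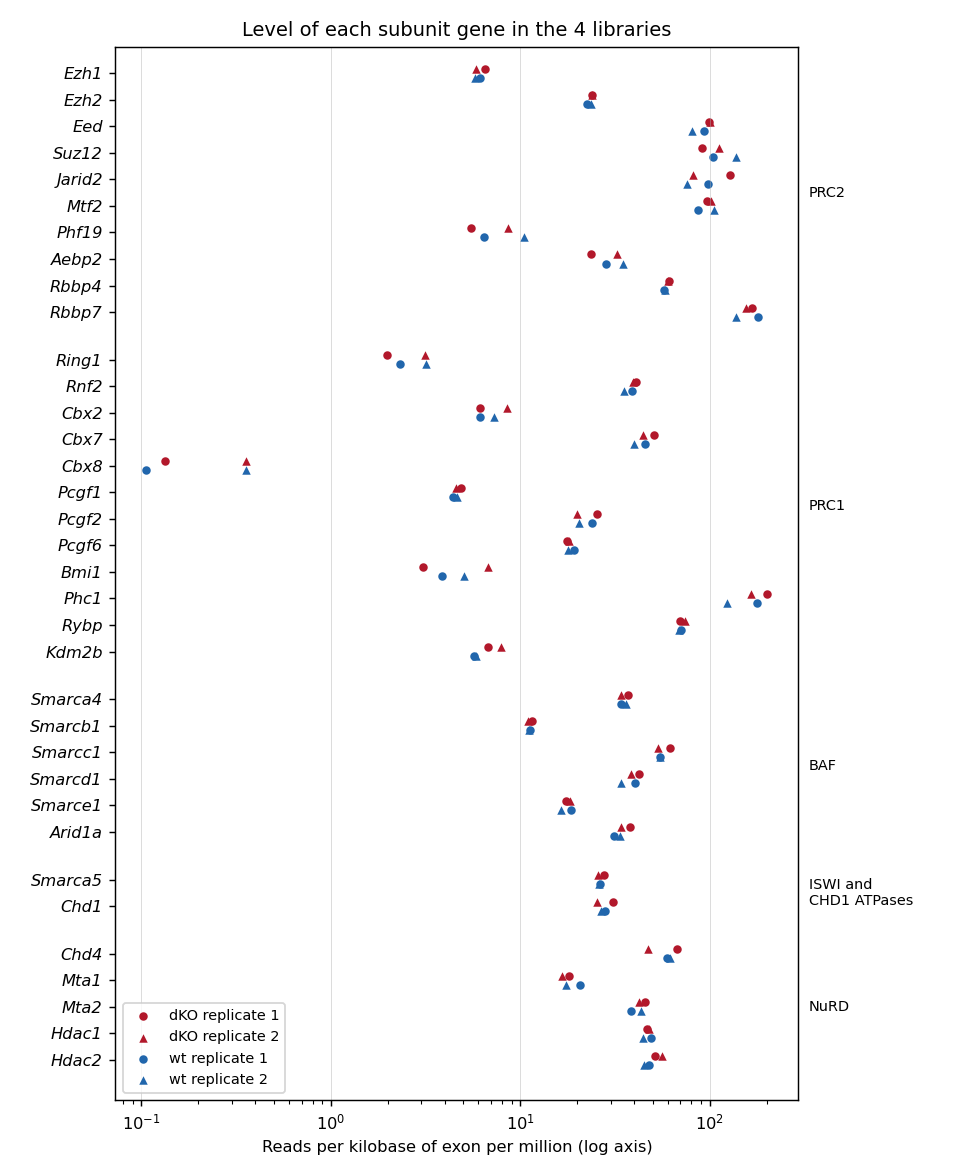
Level of the 35 subunit genes in each library, in RPKM on a log axis, with dKO in red above wt in blue and replicates 1 and 2 as circles and triangles. Levels span from 0.106 RPKM (Cbx8) to 201.3 RPKM (Phc1), and the genotypes overlap for 28 of the 35 genes (9312 of all 14027 tested genes).

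Among PRC1 genes, the paralogues of 1 position in the complex were transcribed at very unequal levels in both genotypes. The chromodomain proteins Cbx7, Cbx2 and Cbx8 bind the mark that PRC2 makes. Cbx7, the main one in ES cells, had 50.5 and 44.5 RPKM in dKO against 45.6 and 39.6 RPKM in wt libraries. Cbx2 had 6.16 and 8.48 RPKM in dKO against 6.15 and 7.23 RPKM in wt libraries. Cbx8 was the lowest of the 35 genes, with 8 and 22 counts in dKO and 5 and 20 counts in wt libraries (0.13 and 0.36 RPKM against 0.11 and 0.36 RPKM). With so few counts the 95% interval of the Cbx8 fold change ran from 0.28 to 3.84, and a difference within it was not detectable at this depth. Phc1, which encodes a polyhomeotic protein that lets PRC1 units join into larger assemblies, was the highest of the 35, with 201.3 and 165.0 RPKM in dKO against 176.9 and 123.3 RPKM in wt libraries. Replicate 1 was the higher library of each genotype and the genotypes overlapped (log2 fold change 0.29, SE 0.21, edgeR adjusted p = 0.968).

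Promoter sequence is shown for the highest gene of the group (Phc1) and for the highest and lowest of its chromobox genes (Cbx7 and Cbx8). The reason is that PRC1 with Kdm2b is known to bind unmethylated CpG. The windows are from RefSeq on GRCm38.p6, run from 250 bases before to 50 after the annotated start, and are written 5′ to 3′ on the gene's strand with each CpG in capitals:
Phc1 (GRCm38, chr6:122340178-122340477, minus strand): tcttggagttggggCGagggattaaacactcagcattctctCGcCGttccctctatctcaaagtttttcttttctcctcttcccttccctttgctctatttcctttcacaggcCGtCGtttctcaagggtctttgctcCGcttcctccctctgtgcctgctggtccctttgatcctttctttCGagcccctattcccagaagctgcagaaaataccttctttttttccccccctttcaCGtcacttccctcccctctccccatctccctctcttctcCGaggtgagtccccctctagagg
Cbx7 (GRCm38, chr15:79932597-79932896, minus strand): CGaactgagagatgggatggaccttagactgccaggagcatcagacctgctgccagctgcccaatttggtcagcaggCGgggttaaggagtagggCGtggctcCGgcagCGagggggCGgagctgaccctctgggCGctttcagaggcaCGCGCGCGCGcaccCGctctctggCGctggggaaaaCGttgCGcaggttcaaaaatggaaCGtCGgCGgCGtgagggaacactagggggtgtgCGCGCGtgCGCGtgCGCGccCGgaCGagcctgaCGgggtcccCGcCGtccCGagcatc
Cbx8 (GRCm38, chr11:119040864-119041163, minus strand): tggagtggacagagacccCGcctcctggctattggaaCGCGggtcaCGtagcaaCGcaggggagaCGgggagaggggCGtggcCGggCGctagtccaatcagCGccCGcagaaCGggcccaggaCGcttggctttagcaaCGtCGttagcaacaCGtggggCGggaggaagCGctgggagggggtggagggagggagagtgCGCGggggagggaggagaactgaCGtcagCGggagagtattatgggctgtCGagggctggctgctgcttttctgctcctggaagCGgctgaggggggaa

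The Phc1 window held 9 CpG, the Cbx7 window 33 and the Cbx8 window 24. Among all 32851 windows 45.8% had as many CpG as Phc1 or more, 8.56% as many as Cbx7 and 20% as many as Cbx8. RefSeq gave 38 windows for 29 of the 35 genes, with a median of 29.5 CpG, against a median of 7 over all windows. Of these 3 windows that of the highest gene, Phc1, held the fewest CpG; the counts describe the letters and say nothing of methylation or binding.

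The ligase pair was unequal as well. Rnf2, the main ubiquitin ligase of PRC1, had 40.9 and 39.3 RPKM in dKO against 38.7 and 35.4 RPKM in wt libraries. Its paralogue Ring1 had 1.97 and 3.13 RPKM in dKO against 2.31 and 3.18 RPKM in wt libraries. Both dKO values of Rnf2 were above both wt values, by 0.11 on the log2 scale (95% interval -0.17 to 0.40), and Ring1 overlapped with a log2 fold change of -0.11 (-0.91 to 0.69).

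The PCGF proteins decide which form of PRC1 a ligase enters. Pcgf2, of the canonical form, had 25.3 and 19.96 RPKM in dKO against 23.9 and 20.3 RPKM in wt libraries. Bmi1, its close paralogue, had 3.07 and 6.77 RPKM in dKO against 3.88 and 5.01 RPKM in wt libraries. Pcgf6, of a variant form that works with Mga and Max, had 17.7 and 18.1 RPKM in dKO against 19.1 and 17.8 RPKM in wt libraries. Within both genotypes Bmi1 was higher in replicate 2 and Pcgf2 in replicate 1, so that the libraries of a genotype differed more from each other than the genotypes did. Pcgf1, which pairs with Kdm2b and Bcor, had 4.88 and 4.56 RPKM in dKO against 4.41 and 4.63 RPKM in wt libraries. Rybp, the subunit of variant PRC1 that stimulates the ligase, had 69.3 and 74.0 RPKM in dKO against 70.1 and 68.7 RPKM in wt libraries. These 4 PCGF genes and Rybp had log2 fold changes between -0.04 (Pcgf6) and 0.15 (Bmi1).

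Kdm2b, whose zinc finger recruits variant PRC1 to CpG islands, was the 1 gene of the 35 with an unadjusted p under 0.05. It lies on chromosome 5 (123320677 to 123465089 in the table's own build) and had 1202 and 1433 counts in dKO against 796 and 968 counts in wt libraries. On the RPKM scale it had 6.79 and 7.87 in dKO against 5.73 and 5.86 in wt libraries. Both dKO libraries were above both wt libraries, a log2 fold change of 0.34 (SE 0.13, 95% interval 0.02 to 0.66) that did not pass over all genes (edgeR adjusted p = 0.883). The unadjusted call was absent without dKO replicate 1, dKO replicate 2, wt replicate 1 or wt replicate 2, by total counts only and by DESeq2's Wald test. It was kept with no low-count filter, with a CPM of at least 1, with DESeq2 size factors and by limma-voom, at unadjusted p of 0.0326 to 0.0477 across these model fits. A fit with a term for the replicate number also kept it and is given in the last section. Of the exon length of Kdm2b 5.8% lies on exons of Rnf34 on the other strand, whose level was 58.6 and 59.1 CPM in dKO against 51.5 and 49.8 CPM in wt libraries; whether reads of the 2 genes were kept apart is not known, and the part of Rnf34 in the difference was not tested. Exons of Mtf2 and Rbbp7 likewise overlap those of Tmed5 and Txlng on the other strand, by 6.9% and 6.0% of their length. Rbbp4 overlaps Sync by 8.9% (9 to 21 counts per library) and Gm26722, which had no row, by 9.1%. Smarcd1 overlaps Gm17349 by 7.1% (0 to 2 counts per library). Overlaps of other genes of the 35 are not listed here.

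None of the 6 BAF genes passed the test, and all 6 log2 fold changes were positive, the highest being 0.15 for Arid1a. Smarca4, the ATPase of the ES cell form of BAF, had 37.0 and 33.8 RPKM in dKO against 33.9 and 36.1 RPKM in wt libraries, a log2 fold change of 0.02 (95% interval -0.28 to 0.31). Smarcb1, a core subunit that contacts the nucleosome, had 11.6 and 11.0 RPKM in dKO against 11.2 and 11.1 RPKM in wt libraries (0.01, -0.27 to 0.295). Smarcc1, a scaffold of the complex, had 61.8 and 53.5 RPKM in dKO against 54.7 and 54.7 RPKM in wt libraries (0.08, -0.24 to 0.39). For these 3 genes both wt values lay between the dKO values. Their signs were not fixed: all 3 were negative without dKO replicate 1, Smarca4 also without wt replicate 1, and Smarca4 and Smarcb1 with total counts only.

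Smarcd1, another core subunit, had 42.3 and 38.2 RPKM in dKO against 40.3 and 33.8 RPKM in wt libraries. Smarce1, an HMG-box subunit, had 17.5 and 18.2 RPKM in dKO against 18.5 and 16.4 RPKM in wt libraries. Arid1a, the DNA-binding subunit that defines canonical BAF, had 37.7 and 34.2 RPKM in dKO against 31.4 and 33.4 RPKM in wt libraries. Only Arid1a of the 6 BAF genes had both dKO libraries above both wt libraries, as 17.2% of all tested genes did. Its log2 fold change was 0.15 (95% interval -0.15 to 0.45). Without wt replicate 2, Smarcd1 was at -0.002 and Smarce1 at -0.05. All 6 intervals lay within 1.5-fold of no change.

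Both single-ATPase remodellers overlapped between genotypes. Smarca5, the ISWI ATPase that spaces nucleosomes, had 27.5 and 25.7 RPKM in dKO against 26.4 and 25.9 RPKM in wt libraries. Chd1, an ATPase of active genes that keeps ES cell chromatin accessible, had 30.8 and 25.4 RPKM in dKO against 28.1 and 26.5 RPKM in wt libraries. Log2 fold changes were 0.03 (95% interval -0.25 to 0.30) and 0.04 (-0.30 to 0.38). Smarca5 has 6 processed pseudogenes with 96.8% to 98.1% identity over at least 2871 bases, with 11 to 53 counts each per library against 2626 to 3484 for Smarca5, so counting may have divided some of its reads.

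Of the NuRD genes, Hdac2 stood highest in dKO relative to wt cells and Mta1 lowest, without a call. Chd4, the ATPase of NuRD, had 67.4 and 47.4 RPKM in dKO against 59.3 and 61.8 RPKM in wt libraries. The 2 dKO libraries enclosed both wt values (log2 fold change -0.08, 95% interval -0.54 to 0.39). The scaffold gene Mta1 had 18.0 and 16.6 RPKM in dKO against 20.5 and 17.5 RPKM in wt libraries, and its paralogue Mta2 had 45.4 and 42.3 RPKM against 38.6 and 43.5 RPKM. Log2 fold changes were -0.14 (SE 0.14) for Mta1 and 0.10 (SE 0.12) for Mta2, and both genes overlapped between genotypes.

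The deacetylase gene Hdac1 had 46.3 and 47.6 RPKM in dKO against 49.1 and 44.4 RPKM in wt libraries. Hdac2 had 51.4 and 56.1 RPKM in dKO against 47.8 and 45.0 RPKM in wt libraries. Both dKO values of Hdac2 were above both wt values (log2 fold change 0.21, SE 0.12, edgeR adjusted p = 0.942), and those of Hdac1 lay between the wt values (0.01, SE 0.12). Hdac1 has a processed pseudogene, Gm10093, with 99.4% identity over 1444 bases and 372 and 418 counts in dKO against 313 and 315 counts in wt libraries, so its reads may be divided as well.

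By complex, the median log2 fold change was 0.05 for the 10 PRC2 genes, 0.09 for the 12 PRC1 genes, 0.06 for the 6 BAF genes and 0.01 for the 5 NuRD genes. With 1 library omitted the PRC2 median was lowest without dKO replicate 1 (0.03) and highest without wt replicate 2 (0.085). The PRC1 median was lowest without wt replicate 1 (0.04) and highest without dKO replicate 1 (0.118). The BAF median was lowest when dKO replicate 1 was omitted (0.013) and highest when dKO replicate 2 was (0.132). For NuRD, omitting wt replicate 2 gave -0.046, omitting dKO replicate 2 gave 0.151 and scaling by total counts only gave -0.009, so the sign of its median was not fixed.

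Libraries with the same replicate number lay together for many of all tested genes and for a somewhat smaller share of the 35. The genes named next are examples among the 35. Cbx8, Bmi1, Phf19, Ring1, Aebp2, Suz12 and Cbx2 were higher in replicate 2 than in replicate 1 in both genotypes, by 0.30 to 1.21 in dKO and 0.23 to 1.47 in wt cells on the log2 CPM scale. Jarid2, Phc1, Pcgf2 and Cbx7 were lower in replicate 2 in both, by differences of -0.65, -0.29, -0.34 and -0.18 in dKO and of -0.37, -0.52, -0.24 and -0.20 in wt cells. The sign of the replicate difference was shared by both genotypes for 23 of the 35 genes (65.7%), against 72.3% of all tested genes. Averaged over genotypes, the replicate difference was larger in size than the genotype difference for 24 of the 35 (68.6%), against 58.7% of all tested genes. These shares describe the libraries, and what the replicate number stands for in culture or sequencing is not given in the labels.

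**Figure D3:**
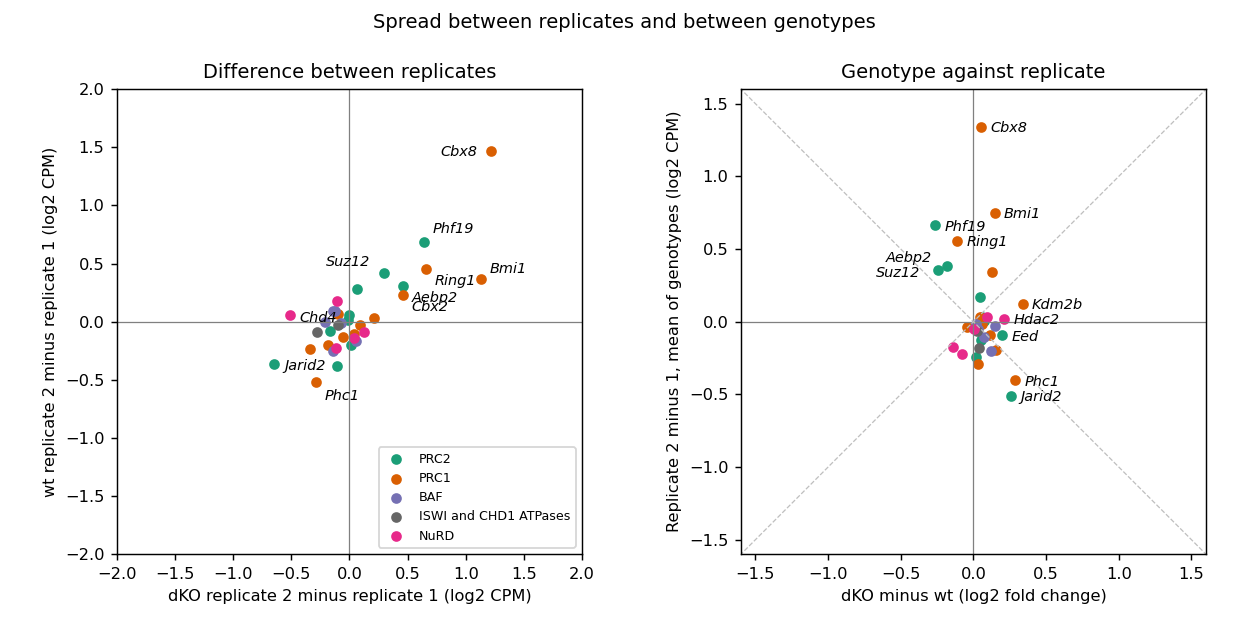
Left, log2 CPM of replicate 2 minus replicate 1 of each subunit gene in dKO (horizontal) and wt cells (vertical). Right, log2 fold change dKO minus wt (horizontal) against the replicate difference averaged over genotypes (vertical), with dashed lines at equal size. Cbx8, Bmi1, Phf19 and Ring1 are high in replicate 2 of both genotypes, and 24 of the 35 genes lie in the upper or lower sector, where the replicate difference is the larger one.

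For subunits that take the same place in a complex, the genotypes overlapped in 6 of 8 proportions. Shares are of the summed reads per kilobase of the genes named. Ezh1 made up 21.4% and 19.5% of Ezh1 plus Ezh2 in dKO against 21.3% and 19.8% in wt libraries. Ring1 made up 4.59% and 7.37% of Ring1 plus Rnf2 in dKO against 5.64% and 8.24% in wt libraries. Cbx7 made up 88.9% and 83.4% of the chromobox trio in dKO against 87.9% and 83.9% in wt libraries. In these 3 the genotypes overlapped, as they did for Rbbp7 in Rbbp4 plus Rbbp7 (means of 72.6% ± 0.98 in dKO and 73.1% ± 3.77 in wt libraries, SD, n = 2 each).

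Wide spreads were seen for Bmi1 in Bmi1 plus Pcgf2, at 10.9% and 25.3% in dKO against 13.9% and 19.8% in wt libraries. Jarid2 made up 56.9% and 44.5% of Jarid2 plus Mtf2 in dKO against 53.1% and 42.0% in wt libraries. For both shares, and for those of Ezh1, Ring1, Cbx7 and Rbbp7, the libraries grouped by replicate number rather than by genotype. Hdac2 made up 52.6% and 54.1% of Hdac1 plus Hdac2 in dKO against 49.3% and 50.3% in wt libraries, a difference of 3.53 percentage points. Mta1 made up 28.4% and 28.2% of Mta1 plus Mta2 in dKO against 34.7% and 28.7% in wt libraries, a difference of means of -3.46 points. Without wt replicate 1 this difference was -0.43 points. Mta3, another NuRD scaffold gene, was not part of the sum (98.2 and 102.1 CPM in dKO against 160.1 and 160.7 CPM in wt libraries). Hdac2 and Mta1 were the 2 shares of 8 in which the genotypes did not overlap, and the exact two-sided permutation test gave p = 0.33 for each (1.0 after Benjamini-Hochberg adjustment over the 8), the smallest value that 2 libraries against 2 allow.

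**Figure D4:**
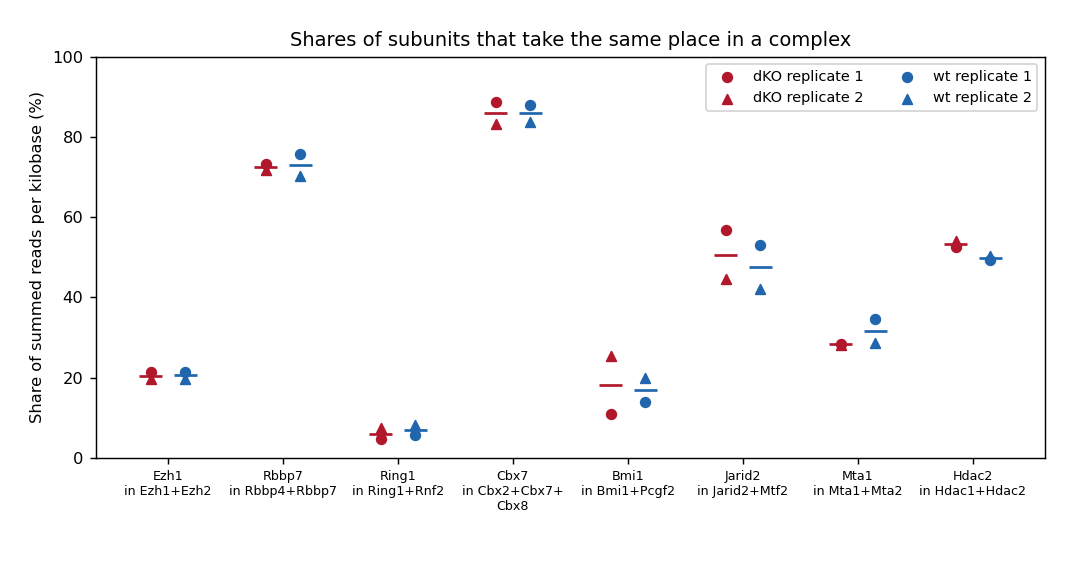
Share (%) of 1 paralogue in the summed reads per kilobase of the genes named under it, in each library, with dKO in red left of wt in blue, replicates 1 and 2 as circles and triangles, and bars at the genotype means. The shares of Ezh1, Rbbp7, Ring1, Cbx7, Bmi1 and Jarid2 separate by replicate number. Those of Hdac2 and Mta1 separate by genotype, with differences between the genotype means of 3.53 and -3.46 percentage points. The Mta1 difference is -0.43 points without wt replicate 1. Mta3, another NuRD scaffold gene, is not part of the Mta1 share.

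The rest of the same machinery was examined in 7 further lists with 106 genes, of which 103 were tested. None passed over all genes in edgeR, 2 were higher and 1 was lower at an unadjusted p under 0.05 (2.87% and 2.71% of all tested genes), and the median log2 fold change was 0.06. Mga, the scaffold of Pcgf6-containing PRC1, had 692 and 653 CPM in dKO against 463 and 446 CPM in wt libraries (log2 fold change 0.56, SE 0.12, edgeR adjusted p = 0.448). Bcor, the partner of Pcgf1, had 149 and 147 CPM in dKO against 123 and 106 CPM in wt libraries (0.37, SE 0.13, edgeR adjusted p = 0.794). Mta3, the third NuRD scaffold gene, had 98.2 and 102.1 CPM in dKO against 160.1 and 160.7 CPM in wt libraries (-0.68, SE 0.11, edgeR adjusted p = 0.292). These 3 were named for their unadjusted p, so the lack of overlap between genotypes in each adds no support. Of the 103 tested genes, 16 had both dKO libraries above both wt libraries and 13 below (17.2% and 16.4% of all tested genes). The calls depended on the test: DESeq2's Wald test called Mga (adjusted p = 0.0276) and Mta3 (adjusted p = 0.00676), where it called 0.67% of all tested genes. With no low-count filter edgeR called Mta3 (adjusted p = 0.0476), where it called 0.351% of all genes then tested.

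In detail, 21 other PRC1 genes had 11 positive and 10 negative log2 fold changes (Usp7, a deubiquitinase that binds PRC1, 0.07), and the 2 tested PRC2 cofactors had 0.12 (Epop) and -0.33 (Phf1). The 7 erasers of Polycomb marks had a median of 0.09, with Asxl1 at 0.06 and the demethylase Kdm6a at 0.11. Of 22 tested BAF genes 16 were positive and 6 negative, with Ss18 at 0.09 and Actl6a at -0.05. The 11 other NuRD genes had a median of -0.01, with the ES cell factor Sall4 at -0.01 and Sall1 at 0.21. Other ISWI and CHD genes had a median of 0.16 over 15 genes, with Baz2a at -0.13 and Bptf at 0.22, and the 25 genes of the INO80, SRCAP and TIP60 complexes had a median of 0.005, with Morf4l2 at 0.01 and Morf4l1 at -0.14. None of the genes named in this paragraph had an unadjusted p under 0.05.

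Genes that Polycomb is known to hold silent in ES cells were low in both genotypes. The list held 45 developmental regulators, such as Pax6, Gata4 and Hox genes, of which 23 passed the low-count filter and 27 averaged under 1 CPM. Their summed level was 96.9 and 107.4 CPM in dKO against 95.1 and 108.1 CPM in wt libraries, so that the genotypes overlapped and replicate 2 was the higher library in both. None passed over all genes in edgeR. At an unadjusted p under 0.05 Tbx2, a T-box repressor, had 1.23 and 1.31 CPM in dKO against 2.11 and 3.55 CPM in wt libraries (log2 fold change -1.16, edgeR adjusted p = 0.844). The 2 with the highest levels, Pax6 and Eomes, had log2 fold changes of 0.05 and 0.18. Few of these genes were measured precisely, with the 95% interval within 2-fold of no change for 3 of the 23.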

How the data were processed

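Trizol was used to extract total RNA of 2 dKO and 2 wt samples, and libraries were made with an Illumina TruSeq RNA kit, per the labels. The values used are raw counts of reads per gene, deposited by the authors in a single table. The submitters' processing notes list TopHat2 2.0.6, TopHat and HTSeq and give no roles. Genome build, annotation and strand setting: not given in the sources used here. Where genes overlap or have near-identical copies, such counting may divide or drop reads. The table's positions are in its own build, as gene ends on chromosome 1 reach 197054592 there and 195323493 in GENCODE M21, which supplied symbols (32919 of 37991 genes) and merged exon lengths by gene ID.

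The test was the robust quasi-likelihood F test of edgeR 4.0.16 (R 4.3.3) after filterByExpr and TMM scaling, with genotype as the only term, Benjamini-Hochberg adjustment over 14027 genes, threshold 0.05. SEs and 95% intervals come from the F statistic. CPM and RPKM use TMM-scaled library sizes; log2 CPM used a prior count of 2. P-values measure the spread between these libraries. Shares were compared by exact permutation (scipy 1.17.1). Copies with at least 90% identity over 300 bases were sought with blastn 2.17.0. Scripts were tested on simulated data. Alternatives were other filters, DESeq2 1.42.0 size factors and Wald test, total counts, limma-voom (3.58.1), a replicate block and each library left out.

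The 35 genes, the other lists and the tests were chosen with earlier results of these data known. By rule, all 35 are named, with Lmnb1 and Lmnb2. From each other subunit list and the Polycomb targets, the rule takes genes past the threshold, up to 3 with the lowest unadjusted p under 0.05 and the 2 with the highest CPM. From the marker lists, only genes with an unadjusted p under 0.05 or without counts in any library are named as markers. A gene that this rule names is not reported here.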

Additional observations from a re-analysis of the deposited data

How the results depend on the processing

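The count of 0 called among the 35 genes was 0 under every alternative except the replicate block (0 with each library left out). The numbers in the titles are not stated to mark a shared culture or day, so the block is given as a hint from the data: deviations of same-numbered libraries correlated across genes (r = 0.65 over all tested genes, 0.80 over the 35, with genes not independent). With the replicate block 2 of the 35 were called, Kdm2b (0.34, adjusted p = 0.0321) and Phc1 (0.30, adjusted p = 0.0412), and 8 had an unadjusted p under 0.05, where 9.26% and 22.2% of all tested genes did. Among the 106 other genes it called 7 (Mga, Bcor, Mta3, Phf10, Pcgf5, Baz2b and Ruvbl1) and of the Polycomb targets 3 (Tbx2 and Msx2 among them), against 0 without it. The other-gene count was 1 with no low-count filter and 2 by DESeq2's Wald test. The unadjusted count of 1 was 0 by total counts only and by DESeq2, and 0 to 2 with 1 library left out. The PRC1 median of 0.09 was 0.07 by total counts only and 0.11 with a CPM of at least 1, a filter that removed Cbx8. With 1 library left out the medians ran from 0.03 to 0.085 (PRC2), 0.04 to 0.118 (PRC1), 0.013 to 0.132 (BAF) and -0.046 to 0.151 (NuRD); the cause was not tested. Of 384 single-gene values under the alternatives, 357 moved by less than 1 SE, 25 moved more and 2 gained a call. Cbx8, at 5 to 22 counts per library, and the Polycomb targets, 27 of 45 under 1 CPM, rest on few reads.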
